A study of Mus musculus with 8 samples.

Results

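Interferon regulatory factors are DNA-binding proteins that control genes of the interferon response and of immune cell development. The members described here are 6 of the 31053 genes in the count table: Irf1, Irf2, Irf3, Irf4, Irf5 and Irf8. They were found by symbol through the mouse annotation of GRCm38, and all 6 were among the 11080 genes with enough counts to be tested. The set was chosen by its measured values in the comparison of KIKO with WT mice, in which Irf4 was known to be lower, so the differences of the members are given as a description and without a p value. Visceral white adipose tissue (vWAT, the epididymal depot) of male C57BL/6 mice was studied by RNA sequencing at an age of 8 months, with 1 library from each of 4 KIKO and 4 WT mice. KIKO mice model Friedreich's ataxia and carry in every cell 1 knock-in allele and 1 knock-out allele of the targeted gene. Littermate C57BL/6 mice served as WT, and both groups were untreated. The comparison asks how gene expression in this fat depot differs in the disease model.

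All members share a DNA-binding domain that reads GAAA-type elements, but they work at different steps. Irf3 and Irf5 wait in the cytoplasm until a sensor of viral or bacterial products leads to their phosphorylation, Irf1 and Irf2 bind the same elements with opposing effects, and Irf4 and Irf8 need partners such as PU.1 and are best known from lymphocytes, macrophages and dendritic cells. In adipose tissue Irf4 is also known from adipocytes, where fasting raises it through FoxO1 and where it favours lipolysis genes, and from alternatively activated macrophages.

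The sequences before the transcription start differed in the elements they held, and are shown for the member with the largest difference and for the 3 members with an interferon-type element. Each run has the 250 bases upstream of a RefSeq start on GRCm38.p6, plus strand, 5′ to 3′. Capitals mark matches to the motifs searched on both strands: the interferon-stimulated response element (ISRE: TTTC, any 2 bases, TTTC), the STAT element GAS (TTC, any 3 bases, GAA), the ETS-IRF composite element (GGAA, any 2 bases, GAAA), AP-1 (TGANTCA), FOXO (GTAAACA), the glucocorticoid response element (AGAACA, any 3 bases, TGTNCT), the TATA box (TATAAA) and NF-kB. The TATA box was added after the sequences had been seen. The 4 runs lie at chr13:30748983-30749232 for Irf4, chr11:53769764-53770013 for Irf1, chr8:46739495-46739744 for Irf2 and chr8:120736108-120736357 for Irf8.
Irf4: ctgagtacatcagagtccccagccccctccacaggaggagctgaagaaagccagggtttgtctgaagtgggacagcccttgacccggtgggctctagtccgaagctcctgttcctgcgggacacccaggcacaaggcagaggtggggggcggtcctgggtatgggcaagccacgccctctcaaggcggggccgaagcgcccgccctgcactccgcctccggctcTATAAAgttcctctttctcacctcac
Irf1: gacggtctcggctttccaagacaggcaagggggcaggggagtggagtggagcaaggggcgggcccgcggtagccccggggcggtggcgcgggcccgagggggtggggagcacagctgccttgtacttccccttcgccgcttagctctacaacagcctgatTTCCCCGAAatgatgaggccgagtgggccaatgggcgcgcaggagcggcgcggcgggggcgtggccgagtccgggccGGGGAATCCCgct
Irf2: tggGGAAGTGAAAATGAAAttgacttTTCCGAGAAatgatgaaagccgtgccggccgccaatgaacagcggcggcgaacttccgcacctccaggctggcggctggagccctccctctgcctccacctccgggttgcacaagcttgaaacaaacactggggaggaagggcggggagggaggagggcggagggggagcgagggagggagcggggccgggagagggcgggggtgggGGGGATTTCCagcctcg
Irf8: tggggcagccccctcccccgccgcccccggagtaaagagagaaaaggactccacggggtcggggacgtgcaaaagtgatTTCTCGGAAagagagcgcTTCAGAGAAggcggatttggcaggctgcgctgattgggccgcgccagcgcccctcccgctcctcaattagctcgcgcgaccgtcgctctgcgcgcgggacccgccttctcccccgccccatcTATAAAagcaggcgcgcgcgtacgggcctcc

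In the Irf4 run the only capitals are a TATA box at positions -26 to -21 from the start, and a TATA box was found in 12.4% of the 32851 mouse promoters of this length. Irf1 held a GAS element at -90 to -82 and an NF-kB match at -13 to -4. Irf2 held an ETS-IRF composite element at -247 to -238 that overlaps an ISRE at -241 to -232, besides a GAS element and an NF-kB match. Irf8 held 2 GAS elements, at -171 to -163 and -153 to -145, and a TATA box. Irf3 and Irf5 had no match in their windows. Irf1 and Irf8 each had a further RefSeq start, and the windows before those starts held no match. Over all promoters, the share with a match was 2.98% for the ISRE, 7.02% for GAS, 2.3% for the ETS-IRF composite, 5.0% for NF-kB, 6.75% for AP-1, 3.17% for FOXO and 0.0365% for the glucocorticoid response element. Among the 6 members, counted per gene over all its starts, GAS was matched in 3, NF-kB in 2, and the ISRE and the composite element in 1 each. AP-1, FOXO and the glucocorticoid response element were matched in none. These are matches of letters and not sites of binding.

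Each library held between 2602189 and 3478539 counts, and between 14822 and 15389 genes had a count. WT mouse 1 stood apart: it gave the highest value of the 8 libraries for 20.8% of tested genes, and its mitochondrial share was 6.91%, against 9.15% to 10.7% in the other 7. Longer transcripts were relatively richer in WT mice 1 and 2, where the rank correlation of a gene's deviation with transcript length was 0.26 and 0.25, than in WT mouse 4 (0.11), WT mouse 3 (-0.11) and KIKO mice (-0.21 to -0.08). Adipocyte markers were abundant in every library, with a summed level of 19404 to 25927 CPM (counts scaled by the library total and its TMM factor), and 6 of 6 markers of epididymis and testis had no count.

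Irf4 was lower in vWAT of KIKO mice than in WT mice, by far the largest difference among the members. The gene lies at chr13:30749226-30766976 on GRCm38, and no other annotated gene overlaps it. In WT mice 1 to 4 it had 221, 73, 62 and 75 counts, and in KIKO mice 1 to 4 it had 25, 34, 15 and 36 counts. Scaled, these were 70.1, 22.1, 20.7 and 25.1 CPM in WT and 8.25, 13.6, 4.86 and 10.5 CPM in KIKO. Every KIKO mouse was below every WT mouse, and WT mouse 1 was far above the other WT mice. The means were 34.5 ± 23.8 CPM in WT and 9.31 ± 3.69 CPM in KIKO (SD, n = 4), and the fitted log2 fold change was -1.90 with an SE of 0.39, which is 3.74-fold more in WT. Irf4 was the only member past an adjusted p of 0.05 in edgeR, where 75 of 11080 genes passed (0.677%), 44 of them lower in KIKO (0.397%). Of all tested genes 8.45% had groups that did not overlap, and Irf4 was the only member among them. Since the set was chosen on this comparison, nothing is read from these counts.

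Because of WT mouse 1, Irf4 was also described without that library. WT mouse 1 had 3.09 times the mean of the other WT mice, which was 22.7 ± 2.23 CPM (SD, n = 3), and 13 of the tested genes deviated more in that direction. The mean of the other WT mice was 2.43 times that of KIKO mice, and the lowest of them was 1.53 times the highest KIKO mouse. The log2 fold change was -1.30 without WT mouse 1, and 48 of 11230 genes passed in that fit (0.427%), Irf4 among them. The set was chosen with this fit known, so nothing is read from that call either. Irf4 also passed without WT mouse 3 (-2.08), and in neither of the fits that left out WT mouse 2 (-2.07) or WT mouse 4 (-2.03). Nor did it pass when KIKO mouse 1, 2, 3 or 4 was left out, with log2 fold changes of -1.85, -2.11, -1.68 and -1.98. The direction was the same in all 18 alternative fits, between -2.11 and -1.30, and the gene passed in 7 of them. With an offset for transcript length and GC content the log2 fold change was -1.83, and Irf4 did not pass. The part of the length trend in the level of WT mouse 1 was not tested. The spread of Irf4 was wide in both groups, with a coefficient of variation of 68.9% in WT and 39.6% in KIKO, against medians of 17.9% and 16.1% over tested genes.

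**Figure D1:**
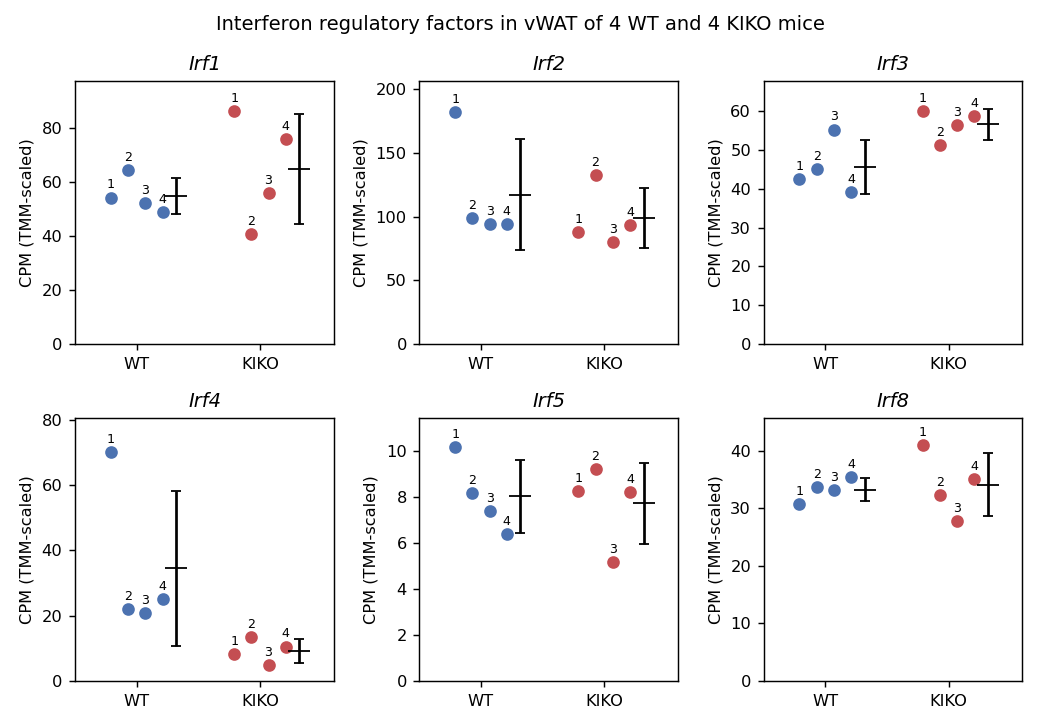
Level of each interferon regulatory factor in vWAT, in TMM-scaled CPM on a linear axis that starts at 0, with 1 point per mouse (number above it) and the mean ± SD of the 4 mice of each genotype beside the points. Irf4 is the only panel in which the groups do not overlap, and WT mouse 1 stands alone at the top in the Irf4 and Irf2 panels.

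Irf8, which shares partners with Irf4 and is needed for monocytes and type 1 dendritic cells, did not follow Irf4. Its levels were 30.7, 33.6, 33.1 and 35.5 CPM in WT mice 1 to 4 and 40.9, 32.4, 27.9 and 35.2 CPM in KIKO mice 1 to 4. The groups overlapped over their whole range, and the log2 fold change was 0.04 with an SE of 0.15. The WT mice differed little among themselves, with a coefficient of variation of 5.88%, and WT mouse 1 was the lowest of them. Irf8 lies at chr8:120736358-120756694, inside the span of the annotated gene Gm20388, which had no count.

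Irf2, known chiefly as the antagonist of Irf1, shared the high value of WT mouse 1 but not the low values of KIKO mice. Its levels were 182 CPM in WT mouse 1, 98.7, 94.0 and 94.1 CPM in WT mice 2 to 4, and 88.1, 133, 80.3 and 93.1 CPM in KIKO mice 1 to 4. The other WT mice lay within the range of KIKO mice. The log2 fold change was -0.25 with an SE of 0.21 over all mice and 0.04 without WT mouse 1, so that its sign rested on that library. WT mouse 1 had 1.91 times the mean of the other WT mice for Irf2. Irf2 spans chr8:46739732-46847458, and the antisense genes Gm45479 and Gm31172 within it had no count.

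Irf1, an activator that interferon gamma induces, was spread widely among KIKO mice. Its levels were 54.2, 64.2, 52.2 and 48.9 CPM in WT mice 1 to 4 and 86.1, 40.8, 55.7 and 75.9 CPM in KIKO mice 1 to 4. Both the highest and the lowest of the 8 values were in KIKO mice. The log2 fold change was 0.24 with an SE of 0.19, and the coefficient of variation was 31.4% in KIKO and 12.01% in WT. Irf1 lies at chr11:53770014-53778374 and overlaps Gm17334 on the other strand, which had 2 counts over all libraries.

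Irf3, the factor that sensors of nucleic acids activate to turn on interferon beta, had a higher mean in KIKO mice, with groups that overlapped. Its levels were 42.5, 45.1, 55.2 and 39.2 CPM in WT mice 1 to 4 and 60.1, 51.2, 56.4 and 58.6 CPM in KIKO mice 1 to 4. Only WT mouse 3 reached the range of KIKO mice. The log2 fold change was 0.32 with an SE of 0.14, and it lay between 0.25 and 0.42 in the 18 alternative fits without passing in any. Irf3, at chr7:44997648-45002848, shares 1065 bases with Bcl2l12 on the other strand, which had 7 to 14 counts in WT and 9 to 18 in KIKO libraries.

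Irf5, which acts below Toll-like receptors and drives inflammatory cytokines in macrophages, was the least counted member, with 16 to 32 counts per library. Its levels were 10.1, 8.18, 7.36 and 6.36 CPM in WT mice 1 to 4 and 8.25, 9.19, 5.18 and 8.20 CPM in KIKO mice 1 to 4. The groups overlapped, and the log2 fold change was -0.07 with an SE of 0.26. Irf5, at chr6:29526625-29541871, shares 1045 bases with Tnpo3 on the other strand, which had 415 to 637 counts per library, so that reads of Irf5 and Tnpo3 in the shared bases cannot be told apart if the counting ignored strand.

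**Figure D2:**
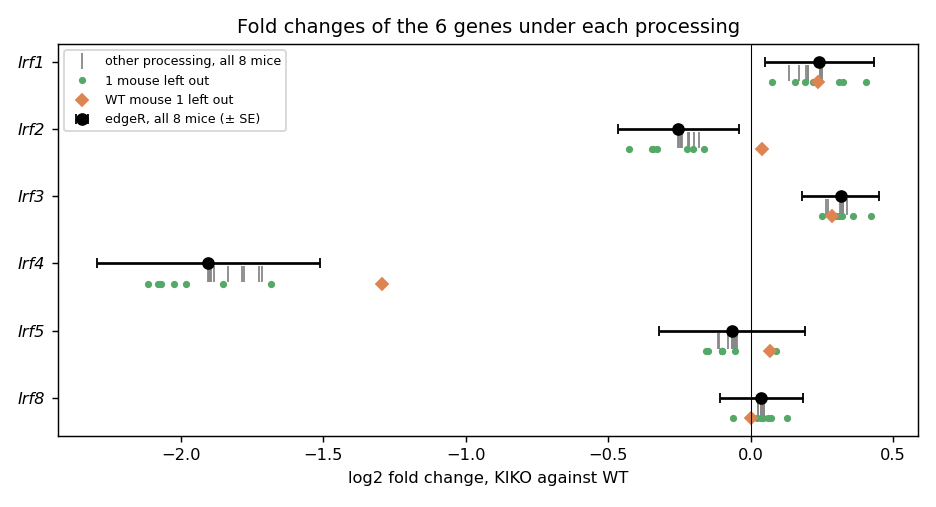
Log2 fold change of each member, KIKO against WT, with the edgeR estimate over 8 mice as a black point ± SE, other processing of all 8 mice as grey ticks, fits without 1 mouse as green dots and the fit without WT mouse 1 as an orange diamond. Irf4 stays between -2.11 and -1.30, whereas Irf2 moves from -0.25 to 0.04 when WT mouse 1 is left out.

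Divided by the length of their merged exons, the WT means were 15.9 CPM per kb for Irf2, 13.8 for Irf1, 13.2 for Irf3, 7.04 for Irf4, 4.71 for Irf8 and 2.76 for Irf5. In KIKO mice the order was Irf3 with 16.4 CPM per kb, Irf1 with 16.3, Irf2 with 13.3, Irf8 with 4.83, Irf5 with 2.65 and Irf4 with 1.90. Thus Irf4 was the fourth in WT and the lowest in KIKO. Without WT mouse 1 it was the fifth in WT, with 4.62 ± 0.456 CPM per kb beside 4.83 ± 0.177 for Irf8 (SD, n = 3), and Irf2 moved from the first place to the third with 12.9 CPM per kb. Over all mice, Irf1, Irf2 and Irf3 differed from each other by no more than the spread between mice in either group. In WT the gap between Irf4 and Irf8 was smaller than the SD of Irf4, 4.85 CPM per kb, and in KIKO the gap between Irf5 and Irf4 was about as large as the SD of Irf4, 0.752 CPM per kb. The paper's methods and the sample labels name different library kits, and if counts came from transcript ends alone, dividing by length would not apply.

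The relatives outside the set gave no further gene past the threshold. Irf7, the amplifier of interferon alpha, had 17.96 ± 5.55 CPM in WT and 18.7 ± 3.13 CPM in KIKO (SD, n = 4). Irf9, the DNA-binding part of the complex ISGF3, had 54.2 ± 13.8 CPM in WT and 47.3 ± 3.75 CPM in KIKO (SD, n = 4). Of the 3 genes for proteins that bind IRF2 or resemble them, Irf2bp2 had 71.96, 60.6, 39.2 and 57.6 CPM in WT mice 1 to 4 and 36.3, 39.2, 40.2 and 42.8 CPM in KIKO mice 1 to 4. The groups of Irf2bp2 overlapped through WT mouse 3, and its log2 fold change of -0.53 (SE 0.17) had an adjusted p of 0.135 by edgeR. Irf2bp1 and Irf2bpl had log2 fold changes of 0.17 and -0.17. Irf9 and Irf7 overlap Rnf31 by 123 bases and Phrf1 by 45 bases, respectively.

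The genes around the factors in their pathway were described in lists that had been written with earlier results of these data known. Over the 12 lists, 133 genes were in the table and 82 were tested. Of the 82, 2 rose in KIKO (Bcl6 and Ifitm3), 1 fell (Oas2) and 79 did not pass. That is 3.66% called beside 0.677% of all tested genes, of which 0.28% rose and 0.397% fell. The median log2 fold change was 0.06 in the lists and -0.01 over all tested genes, with 49 of the 82 above 0 and 33 below. At an unadjusted p under 0.05 there were 14 of the 82 genes and 1794 of all 11080.

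At the top of the pathway, 18 of 20 interferon ligand genes had no count, and Ifng and Ifne had at most 2 counts over all libraries. A count of 0 allows up to 3 counts, which is 0.862 to 1.15 CPM depending on the library, so these ligands were not detectable at this depth. Of the 12 tested receptors, kinases, STATs and inhibitors none passed, and their median log2 fold change was -0.09. Ifngr1, a chain of the interferon gamma receptor, had a log2 fold change of -0.41 (adjusted p = 0.376 by edgeR) and was highest in WT mouse 1, with 482 CPM against 235 to 286 CPM in the other WT mice. Ifnar2, a chain of the type I receptor, stood at 0.18 and Tyk2, a receptor-bound kinase, at -0.25.

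None of the 21 tested sensors, adaptors and kinases upstream of Irf3 and Irf5 passed either, with 13 above 0 and 8 below. The smallest adjusted p values by edgeR were those of Ddx58, which encodes the RNA sensor RIG-I (log2 fold change -0.45, adjusted p = 0.214), Tmem173, which encodes STING (0.49, adjusted p = 0.237), and Myd88, the adaptor of most Toll-like receptors (0.38, adjusted p = 0.270). Among the 10 tested DNA-binding partners of Irf4 and Irf8 none passed. Spi1, which encodes the partner PU.1, had 24.4, 25.1, 38.2 and 23.4 CPM in WT mice 1 to 4 and 41.9, 38.4, 44.1 and 55.4 CPM in KIKO mice 1 to 4. The groups of Spi1 just failed to overlap, between WT mouse 3 and KIKO mouse 2, and the log2 fold change of 0.70 (SE 0.18) had an adjusted p of 0.0803 by edgeR; Spi1 passed with DESeq2, with no filter on low counts and without WT mouse 3. Tcf3 and Batf3 stood at 0.22 and 0.29.

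Genes linked to Irf4 in adipocytes did not pass in any of 5 tested cases. Pnpla2 and Lipe, the lipases of triglyceride breakdown, had log2 fold changes of 0.27 (adjusted p = 0.446) and 0.07 (adjusted p = 0.902) by edgeR. Foxo1, which acts above Irf4 in fasting, stood at -0.29 (adjusted p = 0.328 by edgeR), and Prdm16, a factor of thermogenic fat, at 0.41. For Lipe, WT mouse 1 was the lowest library at 1006 CPM, against 1731 to 2172 CPM in the other WT mice.

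Genes of alternative macrophage activation, a state in which Irf4 is known to act, lay mostly above 0. Of the 6 tested genes, 5 were in that direction and none was past the threshold. The summed level of the list was 1020 to 1544 CPM in WT and 1722 to 1983 CPM in KIKO mice, most of it from Retnla. Arg1 and Chil3 had 0 to 10 counts per library and were not tested. Retnla, a marker of this state, had 670, 851, 1240 and 1063 CPM in WT mice 1 to 4 and 1384, 1568, 1298 and 1488 CPM in KIKO mice 1 to 4. Its groups did not overlap, and the log2 fold change of 0.59 (SE 0.17) had an adjusted p of 0.110 by edgeR, whereas Retnla passed with DESeq2, with no filter on low counts and without WT mouse 3. Clec10a and Il4ra, a lectin and the interleukin 4 receptor, stood at 0.38 (adjusted p = 0.162) and 0.41 (adjusted p = 0.169) by edgeR.

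Among lymphocyte genes linked to Irf4 only Bcl6 had enough counts for the test, and it rose. Bcl6 encodes a repressor known from germinal centre B cells and also expressed in fat and macrophages. Its levels were 20.9, 28.2, 18.4 and 18.4 CPM in WT mice 1 to 4 and 67.3, 34.0, 35.0 and 41.9 CPM in KIKO mice 1 to 4. Every KIKO mouse was above every WT mouse, and the log2 fold change was 1.05 (SE 0.22, adjusted p = 0.0453 by edgeR). Of the 8 fits without a mouse, Bcl6 passed only in the one without WT mouse 3, and its adjusted p reached 0.169 by edgeR.

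Genes that Irf1 is known to turn on did not pass in any of 8 tested cases, with 7 of 8 above 0. Casp1, a protease of the inflammasome, had a log2 fold change of 0.55 (adjusted p = 0.215 by edgeR), and Psmb8 and Psmb9, subunits of the immunoproteasome, 0.42 and 0.35. No gene of the list of Irf5-linked cytokines had enough counts, with 1 to 13 counts per gene over all libraries. Of 5 myeloid genes linked to Irf8 none passed. Klf4, a factor of monocytes, had a log2 fold change of -0.34 and was highest in WT mouse 1, with 447 CPM against 172 to 234 CPM in the other WT mice.

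Of 13 tested interferon-stimulated genes, 1 rose, 1 fell and 11 did not pass, with a median of 0.01. Ifitm3, a membrane protein that blocks virus entry, had 394, 451, 475 and 448 CPM in WT mice 1 to 4 and 760, 705, 671 and 658 CPM in KIKO mice 1 to 4. Its groups were well apart, with a log2 fold change of 0.66 (SE 0.12, adjusted p = 0.0326 by edgeR). Oas2, a synthase of the signal that activates RNase L, had 9.51, 9.99, 8.70 and 7.37 CPM in WT mice 1 to 4 and 3.96, 4.80, 2.92 and 2.64 CPM in KIKO mice 1 to 4, with a log2 fold change of -1.33 (SE 0.28, adjusted p = 0.0442 by edgeR). These 2 genes thus moved in opposite directions, and of the 13 tested genes 7 were above 0 and 6 below. Usp18 had a log2 fold change of 0.57 (adjusted p = 0.457 by edgeR), and Xaf1, Rsad2 and Ifit1 had -0.35, -0.08 and -0.23. Without single mice, Ifitm3 passed in 2 of 8 fits (without WT mouse 1 or 3) and Oas2 in 1 of 8 (without WT mouse 3), and their adjusted p reached 0.152 and 0.197 by edgeR.

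**Figure D3:**
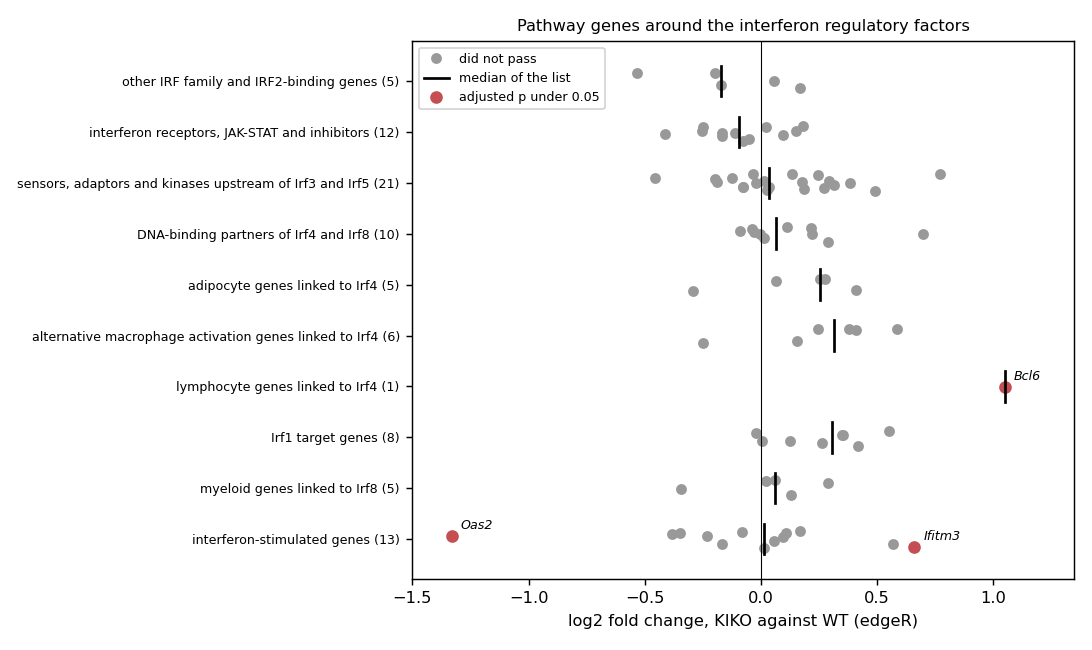
Log2 fold change (KIKO against WT, edgeR) of each tested gene in the pathway lists, with the number tested in brackets, the median of each list as a black bar and genes past an adjusted p of 0.05 in red. Bcl6, Ifitm3 and Oas2 are the only red points, and the list of alternative macrophage activation lies mostly to the right of 0. Vertical position within a row only separates the points.

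In bulk tissue, fewer cells of a type and less RNA per cell cannot be told apart, so markers of cells that use these factors are given beside Irf4. B cell markers (10 of 10 with a count, 5 tested) summed to 307 CPM in WT mouse 1 and to 439 to 504 CPM in the other WT mice, and to 257 to 559 CPM in KIKO mice. WT mouse 1, the highest for Irf4, was thus the lowest WT mouse for B cell markers, and the defining marker Cd79a did not exceed 0.400 CPM in any library. Plasma cell markers (6 of 6 with a count) ranged from 76.6 to 719 CPM in WT and from 160 to 772 CPM in KIKO mice. T and NK cell markers (11 of 11 with a count) summed to 23.5 to 28.5 CPM in WT and 25.6 to 42.2 CPM in KIKO mice. WT mice 1 and 2 were close together for them, at 23.5 and 23.9 CPM.

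Macrophage markers (12 of 12 with a count) summed to 1874 to 2097 CPM in WT and 2090 to 2710 CPM in KIKO mice, and the log2 difference of the sums fell from 0.247 to 0.0453 without Lyz2. Of the 12 markers, 10 had log2 fold changes above 0 and 2 below (Mertk and C1qa), with a median of 0.30. Lyz2 alone passed the threshold, with a log2 fold change of 0.95 (adjusted p = 0.0326 by edgeR). Within this list Mertk, a receptor for dying cells, had 378, 203, 220 and 208 CPM in WT mice 1 to 4 and 90.1, 219, 93.6 and 115 CPM in KIKO mice 1 to 4, with a log2 fold change of -0.97, so that it was highest in WT mouse 1, as Irf4 was. Markers of conventional dendritic cells (9 of 9 with a count, 4 tested) summed to 200 to 237 CPM in WT and 277 to 297 CPM in KIKO mice, without overlap, and WT mouse 1 was the lowest. Most of each sum came from Clec10a, with means of 106 CPM in WT and 138 CPM in KIKO, and Mgl2, with 62.3 and 106 CPM. Clec10a is also in the list of alternative macrophage activation. Flt3, Xcr1, Clec9a and Ccr7 had 0 to 5 counts per library. Zbtb46, of the same dendritic cell list, was highest in WT mouse 1, at 50.7 CPM, with a log2 fold change of -0.26. The part of these marker levels in the Irf4 difference was not tested. Plasmacytoid dendritic cell markers came to at most 8.75 CPM in any library and Klk1 to none. Neutrophil markers came to 9.83 to 25.1 CPM in WT and 11.9 to 21.4 CPM in KIKO mice, mast cell markers to 74.3 to 134 CPM and 85.5 to 124 CPM, and mesothelial markers to 218 to 315 CPM and 223 to 451 CPM. Of the 5 tested mast cell markers, 2 passed, both higher in KIKO (Cpa3 and Cma1), and the other 3 were below 0. Of the 4 tested mesothelial markers, 1 passed, and it was higher in KIKO. Adipocyte markers ranged from 19404 to 24174 CPM in WT and from 21605 to 25927 CPM in KIKO mice. Endothelial markers were 414 to 546 CPM in WT and 277 to 443 CPM in KIKO mice, with all 4 tested genes below 0. The part of the endothelial level in the Irf4 difference was not tested.

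The genes whose profile over the 8 libraries was most like that of Irf4 were Rgs2, Fam107a, Sgk1, Zbtb16 and Vwa3a. Likeness was the root mean square difference of log2 CPM after each gene was centred on its own mean, and it was 0.34 for Rgs2, 0.36 for Fam107a, 0.38 for Sgk1, 0.39 for Zbtb16 and 0.41 for Vwa3a, against a median of 1.08 over the 11079 other tested genes. The same 5 genes were the nearest with a prior count of 0.5 in place of 2. Since they were picked for a profile that is high in WT, their folds are a description.

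Rgs2, a regulator of G protein signalling, had 279.9, 166, 149 and 140.0 CPM in WT mice 1 to 4 and 63.0, 110.3, 50.2 and 74.7 CPM in KIKO mice 1 to 4. Zbtb16, which encodes the transcription factor PLZF, had 461, 281, 161 and 272 CPM in WT and 78.9, 187, 83.3 and 105 CPM in KIKO mice. Sgk1, a kinase named for its regulation by serum and glucocorticoids, had 96.7, 46.9, 19.7 and 46.2 CPM in WT and 15.8, 26.4, 11.7 and 21.4 CPM in KIKO mice. Like Irf4, all 3 were highest in WT mouse 1 and lowest in KIKO mouse 1 or 3, but KIKO mouse 2 exceeded WT mouse 3 for Zbtb16 and Sgk1. Fam107a and Vwa3a were lower in level, with means of 10.9 and 14.99 CPM in WT and 3.91 and 6.32 CPM in KIKO mice.

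The other interferon regulatory factors were farther from Irf4 than these genes. The difference was 0.81 for Irf2, 0.92 for Irf5, 1.07 for Irf8, 1.19 for Irf1 and 1.22 for Irf3. Among themselves, Irf2 and Irf5 were the closest pair of members, with 0.23, followed by Irf3 and Irf8 with 0.24. The log2 level of Irf4 varied over a wider range than that of the other members, which enters all of these differences.

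**Figure D4:**
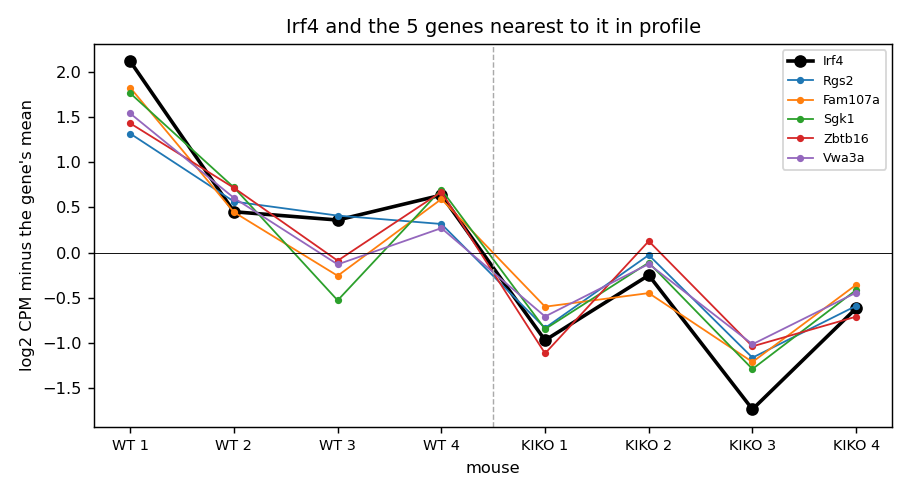
Log2 CPM minus the gene's own mean for Irf4 (black) and the 5 genes nearest to it, in each of the 8 mice, with WT to the left of the dashed line and KIKO to the right. All 6 lines are highest at WT mouse 1, and Irf4 lies above 0 in the 4 WT mice and below 0 in the 4 KIKO mice.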

How the data were processed

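RNA of vWAT was sequenced by the authors from 4 WT and 4 KIKO mice. Reads were trimmed with Trimmomatic and aligned to GRCm38 with HISAT2, and the paper's methods add StringTie; the annotation release and the strand setting of the counting are not given in the sources used here. Raw counts per gene, as deposited by the authors, were used, with 2602189 to 3478539 per library. A second table deposited by the authors holds log2 of the scaled count plus 1 and served only as an alternative. Symbols, positions and exon lengths came from GENCODE for GRCm38 (31011 of 31053 genes found), promoters from RefSeq (GRCm38.p6), in which all 6 members were found. No protein sequences were used here, and the level of the targeted gene and of 1 relative of the members is not reported here.

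Counts were fitted in R 4.3.3 with edgeR 4.0.16 (TMM, filterByExpr by genotype, quasi-likelihood test, Benjamini-Hochberg over 11080 genes, threshold 0.05). SE values are the log2 fold change divided by the square root of F. The common biological coefficient of variation was 0.16, and each mouse is 1 replicate. The fit was tested on simulated data in which every gene had the common coefficient of variation and no library stood apart. That setting does not cover a gene spread as widely as Irf4. The alternatives were other normalizations and filters, DESeq2 1.42.0, limma 3.58.1 (voom, and trend on the log2 values), an offset for transcript length and GC content (mgcv 1.9.3), the replicate number as a block, and leaving out each mouse. Members, lists, markers and motifs were chosen with earlier results of these data known. The genes named are the members, their relatives, in each list all genes past the threshold and up to 3 more with the smallest adjusted p, the 5 genes nearest to Irf4, genes that overlap a member and defining markers; Ifng, Ifne, Rsad2 and Ifit1 were named after their values were seen. No 2 libraries of a genotype agreed within sampling noise.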

Additional observations from a re-analysis of the deposited data

Results flagged for a closer look

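WT mouse 1 was far from the other WT mice for 2 members, by Dixon's test within a group of 4. Irf4 had 70.06 CPM in that mouse, and the gap to the next WT mouse was 0.911 of the range of the group. Irf2 had 182.3 CPM in it, with a gap of 0.947 of the range. Of 14 groups of 4 examined, these 2 were past the critical value at the 95% level; chance flags about 5% of groups. That WT mouse 1 is high for Irf4 was known when the genes were chosen, so its value is a description and the chance rate supports nothing for it.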

How the results depend on the processing

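Irf1 and Irf3 kept log2 fold changes above 0, and Irf4 below 0, in all 18 alternative fits, whereas Irf2, Irf5 and Irf8, which did not pass in any, each changed sign in some fits. The 75 genes past the threshold became 382 with no filter on low counts, 259 with DESeq2, 45 with limma-trend, 40 with limma-voom and 32 with the length and GC offset. The 3 pathway genes became 5 with no filter (with Retnla and Spi1), 4 with DESeq2 (with Retnla and Spi1, without Oas2), 1 with limma-voom and with limma-trend, and 0 with the offset. Irf4, the 1 member past the threshold, did not pass with limma-voom, limma-trend or the offset (0 members each). Leaving out each mouse in turn gave 0 to 654 genes, 0 to 6 pathway genes and 0 to 1 members. The 654 came without WT mouse 3, where Irf2bp2, Retnla and Spi1 passed too; the 0 came without WT mouse 2 or 4 or KIKO mouse 4, with 1344, 1533 and 1328 genes at an unadjusted p under 0.05.

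With the replicate number as a block, 0 genes, 0 pathway genes and 0 members passed in edgeR (1427 genes at an unadjusted p under 0.05), and with the block and the length and GC offset 4, 0 and 0. Deviations of same-numbered mice correlated at -0.15, -0.13, -0.11 and 0.03, and those of differently numbered mice at -0.09 to 0.23. Such correlations cannot show whether mice of the same number were paired, and the labels do not say. Without its most abundant gene, the log2 difference of a marker sum moved from 0.247 to 0.0453 for macrophages (Lyz2), from 0.80 to 1.54 for plasmacytoid dendritic cells (Siglech), from 0.207 to 0.954 for neutrophils (S100a8) and from 0.0518 to 0.558 for mast cells (Tpsb2). The causes were not tested. Depth was lowest for Irf5, with 16 to 32 counts per library, and for Irf4 in KIKO mice, with 15 to 36.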
